A study of Pan paniscus with 11 samples.

Results

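Cathepsins are proteases that work mainly inside the lysosome, the acidic compartment in which cells degrade proteins, lipids and sugars. They are made as inactive precursors and are activated in that compartment, and the heavily glycosylated proteins LAMP1 and LAMP2 line its membrane, where the tetraspanin CD63 also sits. Fibroblasts use these enzymes to digest internalised material and to turn over the collagen of connective tissue. The set described here comprises 10 genes, taken as every probe set whose annotation gives exactly 1 of these symbols: CTSB, CTSC, CTSD, CTSK, CTSL, CTSW, CTSZ, LAMP1, LAMP2 and CD63. They account for 10 of 8226 singly named genes on the array and for 14 of its 12558 probe sets other than controls.

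The intensities come from fibroblast cultures of bonobo (Pan paniscus), 1 array each, with 10 lines from 10 animals that the labels call normal and 1 further culture. The donors of male lines 1 to 5 were 4, 2, 12, 17 and 19 years old, and those of female lines 1 to 5 were 9, 2, 4, 20 and 20 years old. The further culture is male line 1 again, taken at 50% confluence, while the other 10 cultures had what the labels call standard conditions, whose confluence the labels do not state. Comparisons between males and females and across age rest on 1 culture per animal, so p-values measure the spread between lines, and the array probes follow human sequences.

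A probe set was tested if it lay above an intensity of 100, the floor of the deposited values, in at least 5 of the 11 arrays. This held for 12 of the 14 probe sets and for 9 of the 10 genes. For a gene at the floor the value is an upper limit, and it enters means and logarithms at 100. Intensities of different probe sets are not comparable with each other, so each gene is described against itself across cultures.

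The fibroblast label was checked first. All 16 fibroblast markers measured exceeded the floor in each of the 11 cultures, with a median intensity of 6034. The medians of 22 T and NK cell, 14 macrophage and osteoclast, 8 keratinocyte and 7 melanocyte markers were each 100. Single markers were above the floor, among them KRT10 (287 to 703) and CD3E (118 to 290) in all 11 cultures, KRT1 in 10 and SOX10 in 9. Male line 4 had 7 of 8 keratinocyte markers and 13 of 22 T and NK cell markers above the floor. Array quality was uneven. Male line 4 had an ACTB 3′ to 5′ ratio of 2.27, against 0.853 to 1.44 for the remaining standard cultures. In the 50% confluence culture this ratio was 0.669, below every standard culture, against 1.42 in the standard culture of male line 1. The 18S ribosomal RNA controls read 1508 to 2611 in the 50% confluence culture.

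CTSK, CTSL and CTSB encode cysteine endopeptidases. CTSK encodes the collagen-cleaving protease best known from osteoclasts, and it had a strong signal in every fibroblast culture. Its brightest probe set read 6560, 14351, 6194, 3736 and 13635 in male lines 1 to 5, and 9043, 3761, 2339, 13755 and 11784 in female lines 1 to 5. Both sexes held lines near the top and near the bottom of this range, with a mean of 8895 ± 4785 in males and 8136 ± 4961 in females (SD, n = 5 each). The probe set 129_g_at read 2176, 11599, 3295, 698 and 5088 in male lines 1 to 5, against 6660, 1138, 691, 10697 and 4940 in female lines 1 to 5. For 128_at the male lines gave 1938, 8254, 2093, 796 and 5473, and the female lines 6753, 1037, 551, 8263 and 3548. The 3 probe sets ranked the lines alike: their log2 intensities correlated at Pearson r = 0.95 to 0.98 over the 10 lines. Between the highest and the lowest line CTSK differed 6.14-fold by the brightest probe set and 16.8-fold and 15.0-fold by the others. Macrophage and osteoclast markers are given beside it, as both cell types make this protease. The 14 measured summed to 1650 to 2316 in male lines and 1601 to 2459 in female lines, of which the floor alone makes 1400. The highest sums were in male line 2 and female line 4, the lines of highest CTSK in each sex. Other lines did not all follow this order. Male line 3, with CTSK at 6194, summed to 2253, and male line 5, with CTSK at 13635, to 1916. Female line 2, with CTSK at 3761, summed to 1885, and female line 1, with CTSK at 9043, to 1719. CD68 was above the floor in all 11 cultures, CD14 read 176, 128 and 323 in male lines 2, 3 and 5 and 279 in female line 4 and was otherwise at the floor, and 5 of the 14, among them CALCR and TYROBP, were at the floor in every culture. The 4 tested markers had a median r of 0.37 with CTSK over the 10 lines. CD68, among these 4, is also counted with the lysosomal membrane genes below. The median r with CTSK was 0.41 for 24 tested lysosomal hydrolases and activators and -0.06 over all 5369 other tested genes. The part of macrophages and osteoclasts in the CTSK signal was not tested.

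CTSL encodes a broadly expressed endopeptidase of the same family. CTSL gave intensities of 7219, 6394, 7070, 3684 and 4605 in male lines 1 to 5, and 8125, 5685, 3815, 5865 and 10916 in female lines 1 to 5. Its lines thus lay closer together than those of CTSK, with female line 5 highest and male line 4 lowest, and means of 5794 ± 1572 in males and 6881 ± 2725 in females (SD, n = 5 each). CTSV, its closest relative and a possible source of shared probe signal, was above the floor in 2 of 11 cultures only, at 187 in male line 4 and 133 in female line 3. CTSB, a ubiquitous lysosomal protease in human tissues, was at the floor in most cultures. It read 148 and 160 in male lines 1 and 3, and 118 and 216 in female lines 1 and 3. It was not above the floor elsewhere, so it was not tested. These values rest on 1 probe set, whose match to the bonobo sequence was not checked.

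CTSC and CTSZ encode exopeptidases, which trim proteins from their ends. CTSC, the dipeptidyl peptidase that activates serine proteases of immune cells, read 227, 131, 291, 305 and 331 in male lines 1 to 5. In female lines 1 to 5 it read 276, 230, 199, 315 and 1133. Female line 5 stood alone, at 8.65 times male line 2, and the other 9 lines spanned 131 to 331. Means were 257 ± 80.2 in males and 431 ± 395 in females (SD, n = 5 each), and the female SD rests on that line. CTSZ, a carboxypeptidase, lay near the floor at 144, 100, 106, 251 and 100 in male lines 1 to 5 and 173, 148, 100, 100 and 240 in female lines 1 to 5. Its second probe set was at the floor in all 11 cultures.

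CTSD encodes the main aspartic protease of the lysosome. CTSD gave intensities of 1357, 1374, 1484, 837 and 2647 in male lines 1 to 5, and 2952, 1135, 728, 3052 and 1625 in female lines 1 to 5. Male line 5 and female lines 1 and 4 were high, male line 4 and female line 3 were low, and the groups overlapped, with means of 1539.8 ± 668 in males and 1898 ± 1057 in females (SD, n = 5 each). CTSW encodes a cathepsin known in human mainly from cytotoxic T and NK cells. CTSW read 104, 108, 281, 100 and 168 in male lines 1 to 5, against 184, 263, 347, 100 and 308 in female lines 1 to 5. It was above the floor in 4 of 5 lines of each sex, at low levels, and male line 4 and female line 4 were at the floor.

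LAMP1, LAMP2 and CD63 encode the membrane proteins of the set. LAMP1, an abundant coat protein of the lysosomal membrane, read 955, 1123, 1279, 1168 and 961 in male lines 1 to 5, and 795, 855, 978, 1199 and 868 in female lines 1 to 5. LAMP2, which also serves in chaperone-mediated autophagy and is X-linked in human, read 469, 713, 623, 510 and 417 in male lines 1 to 5 and 850, 658, 497, 750 and 330 in female lines 1 to 5. Its dimmer probe set spanned 143 to 267 in males and 121 to 266 in females, and the log2 values of the LAMP2 probe sets correlated at only r = 0.32 over the 10 lines, so its pattern between lines is uncertain. CD63, a tetraspanin of late endosomes, lysosomes and exosomes, read 8603, 7785, 7764, 9592 and 10219 in male lines 1 to 5, and 9722, 8924, 8907, 10026 and 11164 in female lines 1 to 5. The highest CD63 line exceeded the lowest 1.44-fold, the narrowest range among the tested members.

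**Figure D1:**
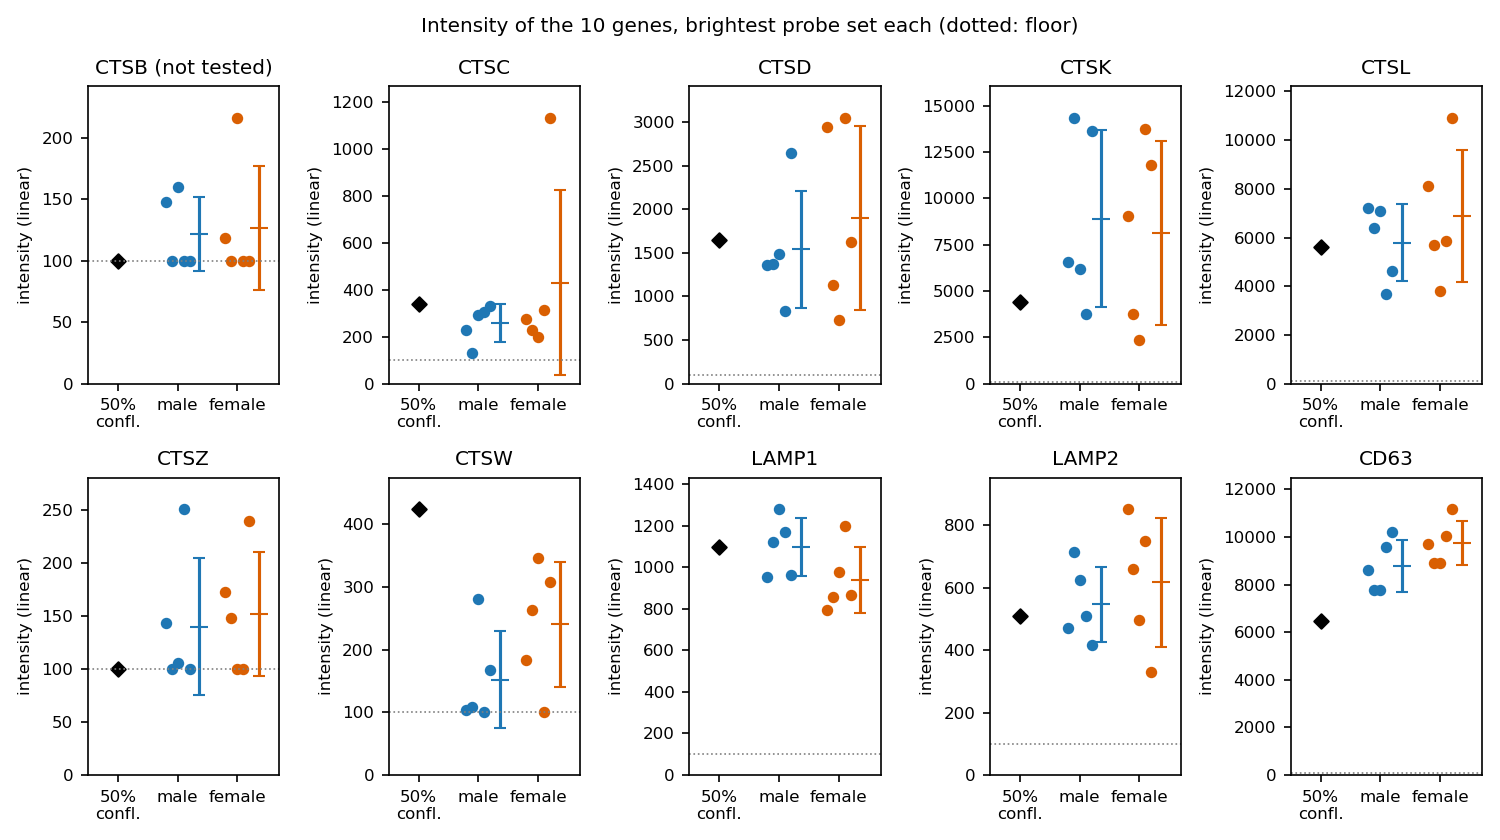
Intensity on a linear axis of the brightest probe set of each of the 10 genes, for the 50% confluence culture of male line 1 (diamond), the 5 male lines and the 5 female lines (points), with the mean and SD of each sex as bars and the floor of 100 dotted. CD63 and LAMP1 vary little, CTSK and CTSD spread widely in both sexes, 1 female line stands alone for CTSC at 1133, and the diamond lies outside all points for CTSW and CD63.

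The spread between lines divided the set. Measured as the SD of log2 intensity over the 10 standard lines, it was 0.93 for the brightest probe set of CTSK and 1.52 and 1.44 for the others, which put these above 97.1%, 99.8% and 99.7% of the 7333 tested probe sets. CTSC (0.80), CTSW (0.73) and CTSD (0.72) lay above 94.4%, 91.5% and 91.0% of them. CTSL (0.49) and the LAMP2 probe sets (0.42 and 0.43) were near the median of all tested probe sets, 0.43. CTSZ had 0.53 on values close to the floor. LAMP1 (0.23) exceeded 6.33% of tested probe sets, and CD63 (0.17) exceeded 1.36%. The CTSC value rests on female line 5, since its SD was 0.42 over the other 9 lines. With a floor of 200 the SD of CTSW was 0.31 and that of CTSZ 0.13, whereas that of CTSK was 0.89 to 1.52 over all other scalings, floors and probe sets tried.

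**Figure D2:**
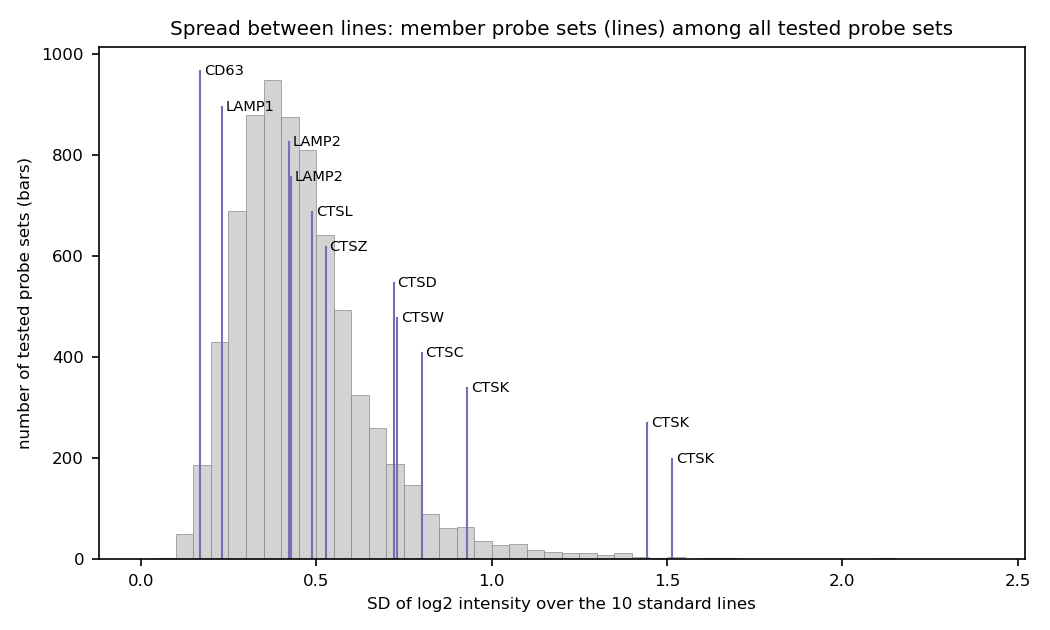
SD of log2 intensity over the 10 standard lines for all 7333 tested probe sets (grey bars, number of probe sets on the vertical axis) and for the 12 tested probe sets of the set (vertical lines, whose height only separates the names). CD63 and LAMP1 lie at the low end, LAMP2 near the median of 0.43, and CTSK at the far right with SDs of 0.93 to 1.52.

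No line was high or low for the whole set. Female line 5 was the highest line for 3 of the 9 tested genes, CTSC, CTSL and CD63, with a median deviation of 0.61 log2 from the gene's median over lines. It was also the lowest for LAMP2. Female line 3 was the lowest for 3 genes, CTSD, CTSK and CTSZ, the last tied at the floor with other lines, with a median deviation of -0.31. Over 36 pairs of these genes the correlation of log2 intensity across the 10 lines had a median of 0.06, and 2 pairs exceeded 0.7. These were CTSD with CTSK (Pearson r = 0.81, Spearman rho = 0.76, and r = 0.85 without the 2 lines farthest in CTSD) and CTSC with CD63 (r = 0.77, rho = 0.78, and r = 0.47 without female line 5 and male line 2). All points share the arrays and their scaling, and correlations are given as descriptions over 10 lines.

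Of 5369 other tested genes, the one with the pattern most like CTSD was PSAP, the precursor of the saposins that help enzymes degrade sphingolipids (r = 0.97, rho = 0.93, and 0.95 without the 2 farthest lines). PSAP read 10976, 11316, 11910, 8076 and 14456 in male lines 1 to 5, and 15294, 9819, 7660, 15794 and 10103 in female lines 1 to 5. As for CTSD, male line 5 and female lines 1 and 4 were highest, and male line 4 and female line 3 lowest. The next were FCGRT, the neonatal Fc receptor (r = 0.91), FAP, a surface protease of activated fibroblasts (r = 0.91), GRN, the precursor of the granulins (r = 0.90), and GAA, the acid alpha-glucosidase that degrades glycogen (r = 0.89). GRN, for example, spanned 1321 to 3346 in males and 1314 to 6102 in females.

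A list of lysosomal hydrolases and their activators was then set against CTSD. Of its 24 tested genes, 22 correlated positively with CTSD, 8 of them above 0.7 (33.3%), and the median r was 0.55. Over all 5369 genes 43.1% were positive, 2.16% exceeded 0.7 and the median was -0.08. Besides PSAP and GAA, those above 0.7 were the hexosaminidase subunit HEXA (0.88), the heparan sulfate enzyme NAGLU (0.85), GALNS (0.78), the sialidase NEU1 (0.75), the sulfatase ARSA (0.74) and the sphingomyelinase SMPD1 (0.71). GUSB, the beta-glucuronidase, ran the other way (r = -0.60). Female line 1 was the highest of the 10 lines for 16 of the 24 hydrolases, and without it 21 of 24 were positive, 6 above 0.7, with a median r of 0.45. Without male line 4, whose ACTB ratio stood apart, 22 of 24 were positive, 6 above 0.7, and the median was 0.49. Among the other cathepsins and legumain 6 of 7 were positive, led by CTSA (0.82) and CTSH (0.73). For 17 vacuolar ATPase subunits, which acidify the lysosome, the median r was 0.34, with 15 positive, and 1 gene exceeded 0.7. For 11 other lysosomal membrane genes the median was 0.21, with 8 positive and 1 above 0.7. That median was 0.12 without female line 1 and 0.35, with 6 positive, without male line 4. For 15 genes of lysosomal sorting and regulation it was 0.14, with 9 positive and 0 above 0.7, and -0.02, with 7 positive, without female line 1 and 0.07, with 8 positive, without male line 4. For mitosis genes 0 of 22 were positive, with a median r of -0.41, but 4 of 22 and -0.25 without female line 1. The part of proliferation in these patterns was not tested.

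**Figure D3:**
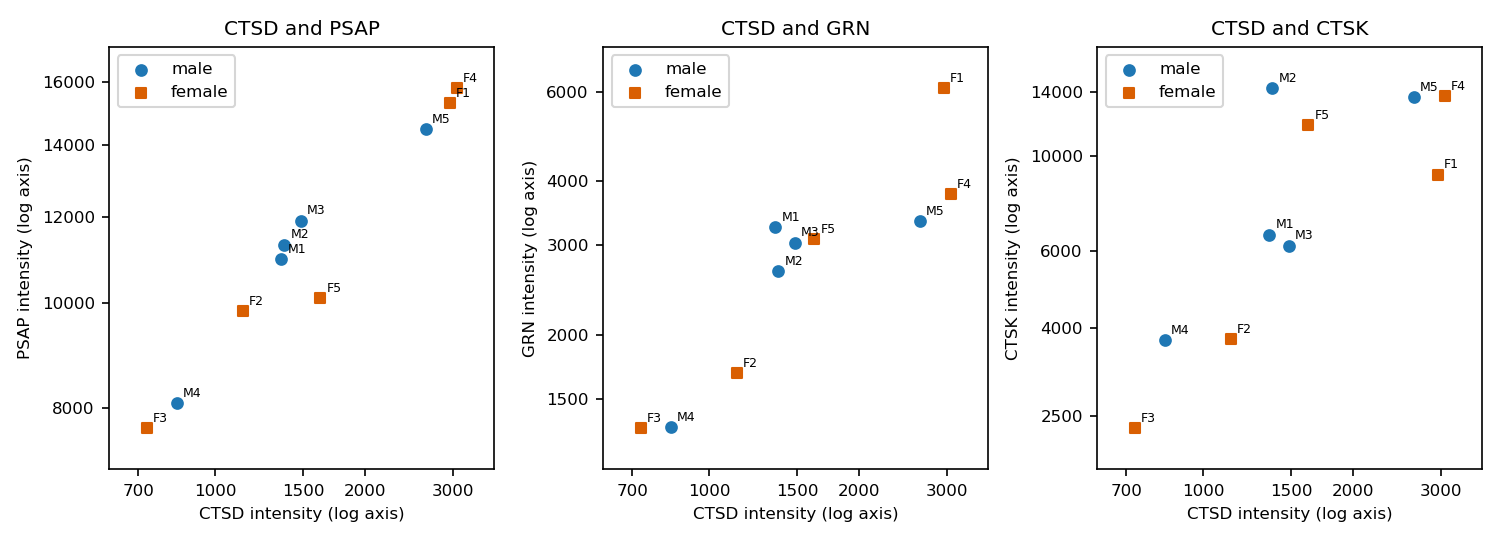
CTSD intensity (horizontal, log axis) against that of PSAP, GRN and the brightest CTSK probe set (vertical, log axes) in the 5 male lines (M1 to M5, circles) and the 5 female lines (F1 to F5, squares). PSAP follows CTSD closely (r = 0.97), with F1, F4 and M5 at the upper right and F3 and M4 at the lower left, and CTSK follows it more loosely (r = 0.81).

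CTSK and CTSC were compared with all genes in the same way. The genes most like CTSK were the ubiquitin ligase scaffold CUL7 (r = 0.92), the peptidase CPQ (0.91), the kinase SRPK3 (0.91), the vasoactive peptide precursor ADM (0.89) and the glucosylceramide synthase UGCG (0.89). Without the 2 lines farthest in CTSK, female line 3 and male line 4, these lay between 0.75 and 0.85. ADM, for instance, read 3683 to 6528 in male lines and 1863 to 8888 in female lines. For CTSC the closest were TFAP2C (r = 0.84), SPDEF (0.84), MT3, CLUH and PIK3CD, but each had its highest value in female line 5. Without female line 5 and male line 2, r was 0.67 for MT3, 0.54 for TFAP2C, 0.53 for CLUH, 0.45 for PIK3CD and -0.45 for SPDEF.

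The first comparison asked whether males and females differed. No member passed. Male and female intensities of the tested members overlapped. The share over all tested probe sets was not computed, so this describes the values and is no result about the set. Of 7333 probe sets 2 were called by limma, 0.0273%, both outside the set, and 171 had an unadjusted p under 0.05. CTSW had the largest estimate, a male minus female log2 difference of -0.66 ± 0.39 (SE), with a 95% interval of -1.49 to 0.17 (limma, adjusted p = 1). The intervals were -1.19 to 0.27 for CTSC (estimate -0.46), -0.70 to 1.20 for CTSK (0.25), -0.95 to 0.57 for CTSD (-0.19) and -0.82 to 0.41 for CTSL (-0.20). LAMP1 (0.23, interval -0.19 to 0.65), LAMP2 (-0.13, -0.73 to 0.46) and CD63 (-0.15, -0.52 to 0.22) had narrower ones. For CD63 the interval covers male levels from 0.697 to 1.17 times female levels, and for the 129_g_at probe set of CTSK from 0.338 to 3.08 times. The estimate for CTSC was -0.14 without female line 5, and that for CTSK changed sign without male line 2 or without female line 3.

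The wider lysosomal lists gave no calls by sex either. Of 24 hydrolases 17 had negative estimates, with a median of -0.11, but without female line 1, or without male line 4, the split was 12 and 12. Negative estimates also numbered 10 of 11 for other lysosomal membrane genes (median -0.10) and 14 of 17 for vacuolar ATPase subunits (median -0.16). Over all 5370 tested genes, 2652 were negative and the median was 0.00. Without female line 1 the membrane count was 6 of 11 (median -0.02) and the ATPase count 11 of 17 (median -0.04), and without male line 4 they were 7 of 11 (-0.13) and 11 of 17 (-0.11). Cysteine protease inhibitors were negative in 5 of 5 (median -0.21), and in 4 of 5 (median -0.36) without female line 1, among them CSTB (-0.12) and CST3 (-0.05), which encode cystatins that bind cathepsins. Mitosis genes had 20 of 22 positive estimates by sex (median 0.82), and 17 of 22 (median 0.56) without female line 1, and their part in these differences was not tested.

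The second comparison asked whether intensity changed with the age of the animal. With limma 0 of 7333 probe sets were called, 0%, and 251 had an unadjusted p under 0.05. CTSC had the estimate of lowest p in the set, 0.76 ± 0.24 (SE) log2 per 10 years with a 95% interval of 0.26 to 1.27 (limma, unadjusted p = 0.00566, adjusted p = 0.999), and 0.49 without female line 5. CTSK had 0.52 (interval -0.13 to 1.18) and CTSD 0.43 (-0.09 to 0.96). CTSL (0.04), LAMP1 (0.07) and CD63 (0.16) had estimates nearer to 0, and those of LAMP2 (-0.20) and CTSW (-0.11) were negative. Positive estimates numbered 7 of 9 genes, with a median of 0.16, against 2672 of 5370 over all genes. Among the other cathepsins CTSH, an aminopeptidase, had an estimate close to that of CTSC, 0.77 (unadjusted p = 0.00631 by limma). CTSH read 155, 378, 369, 274 and 852 in male lines 1 to 5 and 699, 238, 317, 753 and 838 in female lines 1 to 5. The cystatin CST6 had 0.55 and the acid ceramidase ASAH1 0.61. For these lists together 0 genes passed.

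Slopes with age were next set against each other in males and females. CTSK had the lowest p of the set in each of its probe sets, and none passed. In males aged 2, 4, 12, 17 and 19 years its brightest probe set read 14351, 6560, 6194, 3736 and 13635. In females aged 2, 4 and 9 years it read 3761, 2339 and 9043, and in those aged 20 years 13755 and 11784. Females of 9 years or more were thus all above the younger ones, while among males the youngest and the oldest were highest. The slope was -0.28 ± 0.38 (SE) log2 per 10 years in males and 1.15 ± 0.34 in females. Male minus female, the slopes differed by -1.42 ± 0.51 (limma, unadjusted p = 0.0151, adjusted p = 0.973), and it was -2.52 and -2.09 for the other probe sets (adjusted p = 0.949 and 0.973 by limma). Leaving out male line 5 gave -2.14 (adjusted p = 0.174 by limma), and leaving out male line 2 gave -0.91 (adjusted p = 1 by limma), the extremes over the lines left out in turn.

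CTSL leaned the same way, with slopes of -0.43 ± 0.26 in males and 0.40 ± 0.23 in females (SE) and a difference of -0.83 ± 0.35 (limma, adjusted p = 0.973). For CTSD the difference was -0.49 ± 0.49 and for CTSW 0.70 ± 0.52. The LAMP2 probe sets disagreed, at -0.06 and 0.66. In this fit limma called 1 of 7333 probe sets, 0.0136%, and 355 had an unadjusted p under 0.05. The call was MMP1, the interstitial collagenase, at -4.53 ± 0.63 (SE, adjusted p = 0.0458), which several other settings lost. Of the hydrolases 20 of 24 had negative differences, with a median of -0.29, against 2592 of 5370 genes and a median of 0.02. That median was -0.37 without female line 1 and -0.16 without male line 4. Macrophage and osteoclast markers had 4 of 4 negative differences (median -0.57), and 3 of 4 without female line 1 or without male line 4, and mitosis genes had 21 of 22 positive (median 0.85). Their part in the hydrolase differences was not tested.

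**Figure D4:**
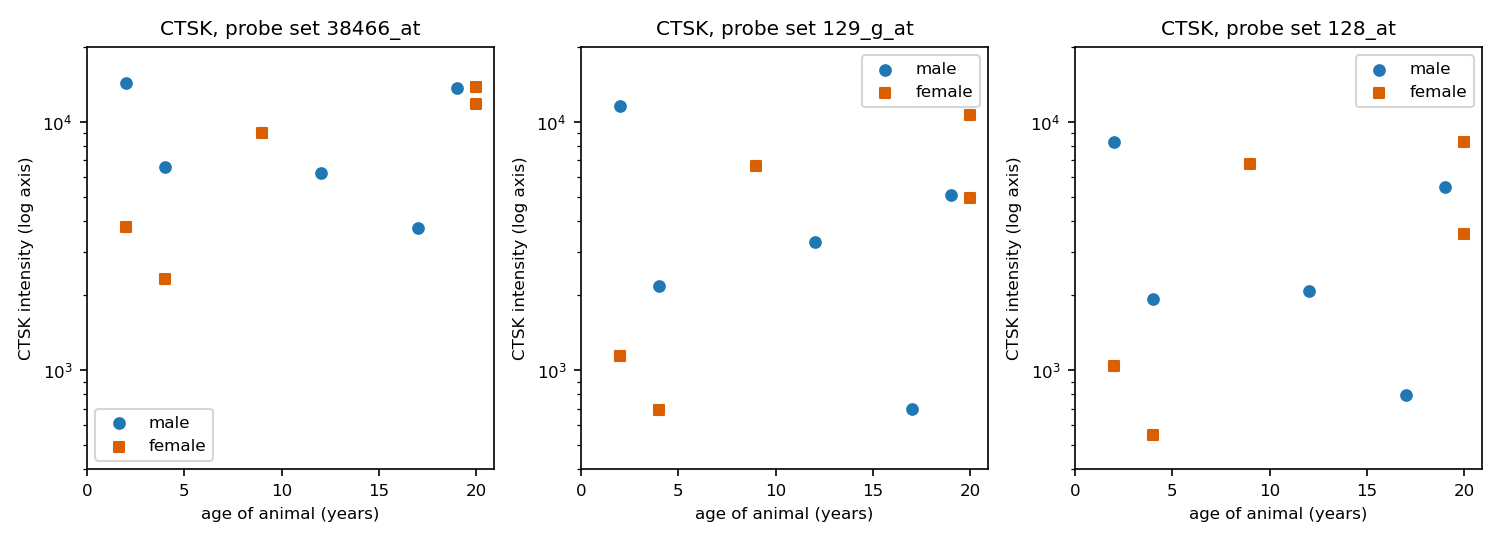
CTSK intensity (log axis) by the age of the animal in years, for each of the 3 probe sets, in male lines (circles) and female lines (squares). In all 3 panels the female lines of 9 years or more lie above those of 2 and 4 years, while the highest male line is the one aged 2 years.

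The last comparison set the culture of male line 1 taken at 50% confluence against its standard culture. There was 1 culture of each, so no test was possible, and values are set beside the range of the 10 standard lines. Over 2-fold differences were counted among the 6147 probe sets above the floor in both cultures: 4.88% were higher at 50% confluence, 4.75% were lower, and 9.63% differed either way. The intensity at 50% confluence exceeded or fell short of every standard line for 17.5%. Of 11 probe sets of the set above the floor in both, 1 was over 2-fold higher, none was over 2-fold lower, and 2 lay outside the 10 lines, which is to be read against the shares just given.

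CTSW was the 1 member past 2-fold. It read 424 at 50% confluence and 104 in the standard culture, 4.08-fold higher, and above the standard lines, which spanned 100 to 347. The standard value lay just above the floor, and with a floor of 200 the difference was at least 1.08 log2. As CTSW is known from T and NK cells, their markers are given beside it. The 22 markers summed to 2698 at 50% confluence and 2998 in the standard culture, of which the floor alone makes 2200, with 8 above the floor at 50% confluence and 6 in the standard culture. Of the 5 tested markers above the floor in both cultures, 1 was higher at 50% confluence and 4 were lower, with a median of -0.45 log2. The higher one was CD2, which read 139 at 50% confluence and 108 in the standard culture. ZAP70 read 207 at 50% confluence and was at the floor in the standard culture. CD3E read 192 at 50% confluence and 290 in the standard culture, and CD8B read 194 at 50% confluence and 202 in the standard culture. NKG7 read 125 at 50% confluence and 353 in the standard culture, and PRF1 read 214 at 50% confluence and 293 in the standard culture. CD3G, GZMB, GZMK, GNLY and KLRD1 were at the floor in all 11 cultures. The part of such cells in the CTSW signal was not tested. The genes next to CTSW in the bonobo gene table did not share its difference. FIBP read 1355 at 50% confluence and 1575 in the standard culture, and EFEMP2 read 1185 at 50% confluence and 923 in the standard culture. The arrays compared also differed in quality measures. The 18S controls read 1508 to 2611 at 50% confluence and 100 in the standard culture. The ACTB 3′ to 5′ ratio was 0.669 at 50% confluence and 1.42 in the standard culture. The part of these array measures in the differences between the cultures was not tested.

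CD63 went the other way. It read 6474 at 50% confluence and 8603 in the standard culture, 0.753 times as high, which was below the 7764 to 11164 of the standard lines. The difference of -0.41 log2 was -2.42 in units of the SD of CD63 between lines, and it was -0.55 to -0.38 over 4 other scalings and floors. Among 8 other tetraspanins above the floor in both cultures 5 were lower, including TSPAN5 (-0.68), CD9 (-0.60) and TSPAN3 (-0.54), and 3 were higher, TSPAN31 (0.53), CD81 (0.22) and UPK1A (0.11). Their median was -0.31, while over all compared probe sets the median was 0.01 and 50.3% were higher.

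For the other members the 50% confluence value lay within that range. CTSK read 4405 at 50% confluence and 6560 in the standard culture (-0.57 log2), and its other probe sets gave -0.55 and -0.45. CTSL read 5616 at 50% confluence and 7219 in the standard culture (-0.36). CTSC read 338 at 50% confluence and 227 in the standard culture (0.57), and CTSD read 1644 at 50% confluence and 1357 in the standard culture (0.28). For LAMP1 the values were 1098 at 50% confluence and 955 in the standard culture (0.20). LAMP2 read 509 at 50% confluence and 469 in the standard culture (0.12), with 0.30 for the dimmer probe set. Each of these differences was smaller than the SD of that gene between lines. CTSB and CTSZ were at the floor at 50% confluence and read 148 and 144 in the standard culture.

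**Figure D5:**
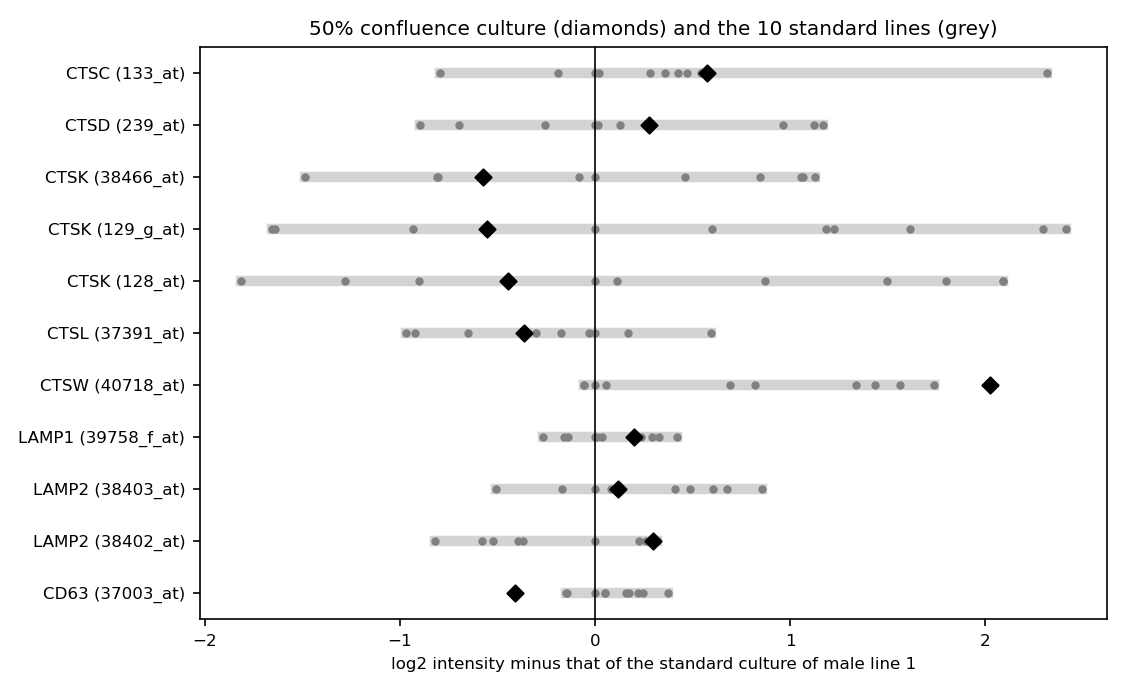
Log2 intensity minus that of the standard culture of male line 1, for the 50% confluence culture (diamonds) and the 10 standard lines (grey points, with their range as a bar), for the 11 probe sets above the floor in both cultures. CTSW lies above the range of the standard lines and CD63 below it, and the other diamonds lie inside.

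Genes around the cathepsins were described in the same way at 50% confluence. Hydrolases were 12 higher and 11 lower, with a median of 0.04, and 4 of 23 were over 2-fold higher, where 4.88% of all compared probe sets were: IDUA (1.19), PPT1 (1.18), GM2A (1.14) and IDS (1.02). PPT1, which removes fatty acids from proteins, read 1251 at 50% confluence and 554 in the standard culture. Of the 3 cysteine protease inhibitors above the floor in both cultures 2 were over 2-fold higher. CSTB read 5427 at 50% confluence and 2449 in the standard culture, 1.15 log2 higher and above every standard line, the highest of which read 4727. CST6 read 310 at 50% confluence and 128 in the standard culture (1.28), and CST3 was lower (-0.29). Of 11 other lysosomal membrane genes 2 were over 2-fold higher, CD68 (1.42) and the peptide transporter ABCB9 (1.33). Among 17 vacuolar ATPase subunits 1 was past 2-fold, TCIRG1, which was lower (-1.08, 468 at 50% confluence and 990 in the standard culture), where 4.75% of all compared probe sets were.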

How the data were processed

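The authors deposited 1 whole-number intensity per probe set on a linear scale in 11 cultures, for an Affymetrix human array with 12625 probe sets. The sources used here do not say how probes were summarised or arrays scaled. Low intensities were deposited at a floor of 100, or of 90 in 2 arrays, male line 5 and the 50% confluence culture. The 50% confluence culture and the standard culture of male line 1 thus differed in their deposited floor. Array means after trimming 2% were 408 to 423, so the deposited scaling was kept. Values were floored at 100 and transformed to log2. Without 67 control probe sets, the 7333 probe sets above the floor in at least 5 of 11 arrays were tested. Gene names came from a probe annotation of 2016, and all 10 symbols were found in a RefSeq bonobo gene table, used for names and neighbours.

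Linear models with sex and age, and then with their interaction, were fitted to the 10 standard lines using the limma package (version 3.58.1, under R 4.3.3), with eBayes and an intensity trend. P-values are two-sided, adjusted by Benjamini-Hochberg over all 7333 probe sets, with a threshold of 0.05. The fits were also run on simulated data, drawn independently for each probe set without the floor or effects shared by an array. The outcome is not given here, and no result rests on it. Lines were grouped by the labels and numbered in accession order. The number of arrays limits the precision. The probe set with the highest mean log2 stood for a gene in counts.

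The members, lists and tests were chosen with earlier results of these data known. Named were all 10 genes, up to 4 genes of lowest p or largest change per list, the 5 genes most correlated with each of the 3 members of largest SD above the floor in all 10 lines, and measured neighbours; hydrolases with r above 0.7, CTSV, CTSA, CST3, GUSB, MMP1, TFEB and single markers were added after their values were seen. Alternatives were quantile normalization, median centring, a floor of 200, a pseudocount of 50, other filters and variance models, log2 age, a single covariate, other probe sets, and leaving out each line. Leaving out female line 1 or male line 4 from the lists was chosen after seeing the data.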

Additional observations from a re-analysis of the deposited data

Results flagged for a closer look

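CTSC in female line 5 read 1133, against 199 to 315 in the other 4 female lines, a gap large enough to set it apart from its group. The same intensity of 1133 set it apart among the 10 standard lines, the other 9 of which read 131 to 331. For these probe sets 36 groups of values were examined and 2 stood out, both through this 1 array value, where chance flags about 1 in 20 groups. The CTSC estimates without that line were -0.14 log2 for sex (-0.46 with it) and 0.49 log2 per 10 years for age (0.76 with it).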

How the results depend on the processing

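Under all alternatives 537 estimates of the members by sex, age or sex by age were computed, none was called by limma, and the lowest adjusted p was 0.174. No paired analysis was possible because replicate numbers follow accession order and pair nothing. The count of 2 probe sets called by sex was 1 with a floor of 200, with log2(intensity + 50) and with all probe sets, 0 among probe sets above the floor in all arrays, 3 with no intensity trend, with array weights and with no age term, and 1 to 2 when a line was left out. The age count of 0 became 1 with all probe sets. The sex by age count of 1 became 0 under quantile normalization, median centring, all probe sets, no intensity trend, array weights and log2 age, and was 0 to 1 when a line was left out. The harvest count of 592 was 317 with a floor of 200, 399 with log2(intensity + 50), 583 under quantile normalization and 600 with median centring, where 334 were higher and 266 lower. The cause of these changes was not tested. Signs turned in 30 member estimates, 27 of them on leaving out a line. The others were CTSD by sex with array weights (0.042) and LAMP2 by sex and age with its other probe set (0.66) or the mean of both (0.30). Leaving out a line, sex differences that turned ran from -0.44 to 0.10 for CTSD, -0.15 to 0.64 for CTSK, -0.33 to 0.033 for LAMP2, -0.41 to 0.015 for CTSL and -0.36 to 0.043 for CTSZ. Age slopes ran from -0.15 to 0.14 for CTSL, -0.26 to 0.17 for CTSW and -0.0089 to 0.13 for LAMP1. Sex by age differences ran from -0.34 to 0.44 for CTSZ, -0.45 to 0.23 for LAMP2, -0.22 to 0.050 for LAMP1, -0.020 to 0.084 for CD63 and -0.75 to 0.31 for CTSC. CTSB, CTSW and CTSZ lie so close to the floor that their patterns are bounds in part.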

Other observations

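Signals of the members were also set beside measures of the arrays, as descriptions over the 10 standard lines. CTSL ran against the mean level of mitosis genes (r = -0.71, rho = -0.73), which was highest in male line 5 among males and in female line 3 among females. The representative probe set of LAMP2 ran against the ACTB 3′ to 5′ ratio (r = -0.56, rho = -0.81, and r = -0.80 without male line 4). Its other probe set did not (r = 0.33, and 0.020 without male line 4). CTSK also ran against this ratio, with r = -0.45 for its brightest probe set, -0.67 for 129_g_at and -0.60 for 128_at. Without male line 4 these were -0.29, -0.52 and -0.49. CTSD had r = -0.45 with this ratio, and -0.19 without male line 4. With the mean level of mitosis genes CTSD had r = -0.49 (rho = -0.54), while LAMP1 went the other way (r = 0.52, rho = 0.49). CTSZ ran with the ratio (r = 0.71, and 0.49 without male line 4). The part of proliferation or RNA quality in these patterns was not tested.

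CTSS, a cathepsin of antigen-presenting cells and a near neighbour of CTSK in the bonobo gene table, was at the floor in all 11 cultures. DAPK1, next to CTSL, read 514 at 50% confluence and 119 in the standard culture, where CTSL read 5616 and 7219. TFEB, a transcription factor that drives lysosomal genes in human cells, was at the floor in all 11 cultures, while its relative TFE3 read 355 at 50% confluence and 548 in the standard culture, and 511 to 821 in the other standard lines.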
